A study of Caenorhabditis elegans with 15 samples.

Results

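The genes described here are the protein-coding genes on the X chromosome of Caenorhabditis elegans that carry a sequence name and no gene-class name, such as C55B6.1. They were taken from the WBcel235 annotation by chromosome, biotype and the form of the symbol, and kept where the raw counts summed to at least 150 over the 15 libraries. Of 1381 such genes annotated on X, 1318 were in the count table and 796 were kept, out of 46739 gene identifiers in the series; 496 had a summed count from 1 to 149 and 26 had none. The members just inside the limit were F52E10.4 (150 counts), F19G12.8 (151) and F16B12.7 (152), and C39B10.1, F09E10.6 and F53B3.3 (149 each) were just outside it. They were compared with 4227 autosomal genes chosen in the same way on chromosomes II to V, of which 4226 could be tested, and with 1073 X-linked protein-coding genes that have other symbols. All 796 members passed the filter on low counts and were tested.

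RNA was sequenced from whole adults picked by hand 24 h after the middle of the fourth larval stage, with 3 libraries for each of 5 genotypes. These were wild type (wt), gld2, and 3 genotypes labelled as double knock-outs, gld2-ccf1, gld2-ccr4 and gld2-parn1, so that every mutant library carries the gld2 change. The gene gld-2 encodes a cytoplasmic poly(A) polymerase, which lengthens mRNA tails, and ccf-1, ccr-4 and parn-1 encode deadenylases, which shorten them. The comparisons ask how expression differs when the polymerase is lost alone or together with a deadenylase. Each double mutant is compared with the same gld2 libraries that are compared with wt. Opposite changes of a gene in these comparisons are therefore not independent. The labels name no alleles, give no separate cultures for the replicates and describe no sorting of tissues, so the p-values measure only the spread between these libraries.

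A C. elegans hermaphrodite has a pair of X chromosomes, and the dosage compensation complex lowers X transcription in its somatic cells. In the germ line the X chromosomes are largely kept silent by the MES chromatin proteins, until late in oogenesis, and genes that act in sperm are rare on X. X-linked transcripts of an adult therefore come mostly from somatic tissues and from growing oocytes. In whole animals fewer cells of a type and less RNA per cell cannot be told apart.

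Library totals ran from 28.1 to 39.4 M counts. Ribosomal RNA took over 4% of the counts in 4 libraries: wt replicate 1 (7.04%), gld2 replicate 3 (4.30%), gld2-ccf1 replicate 2 (14.3%) and gld2-parn1 replicate 3 (6.80%). The targeted genes were looked at first, as CPM, that is counts per M of library size, scaled by trimmed mean of M values (TMM). The level of gld-2 was 211 ± 32.1 CPM (SD, n = 3) in wt and 53.7 ± 0.853 CPM in gld2, and ccr-4 was 281 ± 17 CPM in gld2 against 170 ± 7.45 CPM in gld2-ccr4. The level of ccf-1 was 78.5 ± 11.4 CPM in wt and 31.8 ± 4.38 CPM in gld2, and it was at 47496, 25346 and 15544 CPM in the 3 libraries labelled gld2-ccf1. In those libraries it held from 1.65% to 4.97% of the counts and was far higher than in gld2. Libraries labelled gld2-parn1 had parn-1 at 60.6 ± 4.74 CPM against 50.6 ± 4.15 CPM in gld2. Counts per gene do not show whether a product was lost, so the genotypes of these 6 libraries rest on their labels.

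The members were expressed at low levels in all genotypes. Their median level over the 15 libraries was 2.65 CPM per kilobase of exon, against 3.75 for the autosomal sequence-named genes and 5.30 for the X-linked genes with other symbols. Together the members held 0.914%, 0.931% and 0.963% of the counts in the wt libraries and 1.14%, 1.06% and 0.975% in gld2. The libraries labelled gld2-ccf1 had 1.35%, 1.14% and 1.25%, those of gld2-ccr4 1.21%, 1.26% and 1.184%, and those labelled gld2-parn1 1.04%, 0.987% and 1.03%. Every library of a mutant genotype lay above all 3 wt libraries, and the gld2-ccr4 libraries lay above all 3 gld2 libraries. The range of gld2-ccf1 only just cleared that of gld2, and gld2-parn1 lay within it.

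**Figure D1:**
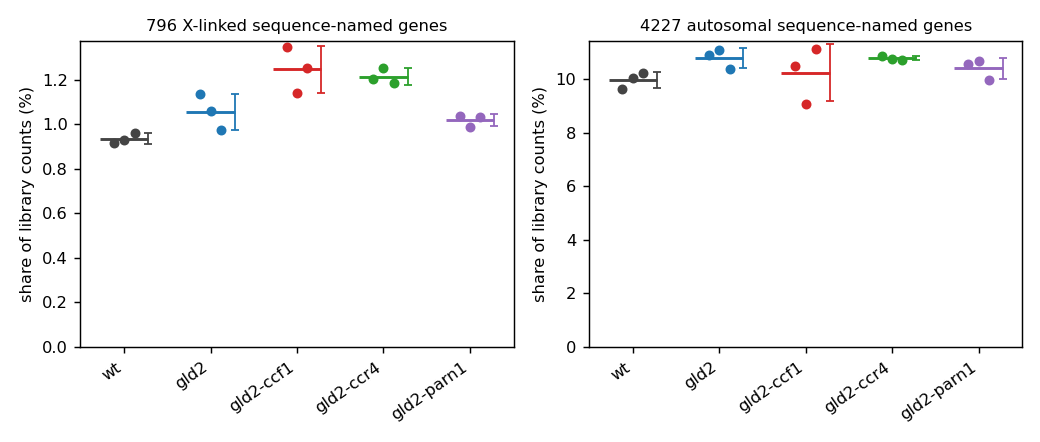
Share of each library's counts (percent, vertical axis from 0) held by the 796 X-linked sequence-named genes (left) and by the 4227 autosomal ones (right), by genotype; points are libraries in replicate order, lines are means and bars are SDs (n = 3). On the left the wt mean is 0.936% and the gld2-ccf1 and gld2-ccr4 means are 1.25% and 1.21%; on the right the genotype means lie between 9.97% and 10.8%.

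Ribosomal RNA, mitochondrial genes and ccf-1 take different parts of the libraries, and with these left out the mean shares were 1.46% in gld2-ccf1, 1.36% in gld2-ccr4, 1.17% in gld2, 1.15% in gld2-parn1 and 1.03% in wt. The genotype with the highest mean level was gld2-ccf1 for 304 of the 796 members (38.2%), gld2-ccr4 for 169, gld2 for 132, wt for 114 and gld2-parn1 for 77. For the autosomal sequence-named genes the same counts were 893 (21.1%), 571, 708, 893 and 1162. Among the X-linked genes with other symbols the shares were 41.6%, 22.6%, 14.1%, 11.6% and 10.2% in that order. The lean to gld2-ccf1 was thus found in both X-linked sets.

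A few members stood far above the median. F46H5.3 (X, 7230705 to 7238662) had the highest level, 313 CPM per kilobase, and varied little: it was at 469 ± 9.19 CPM in wt, 378 ± 21.1 in gld2, 443 ± 48.6 in gld2-ccf1, 538 ± 8.54 in gld2-ccr4 and 462 ± 59.5 in gld2-parn1. Next came T22B7.7 at 278 CPM per kilobase, C07D8.6 at 175, Y62H9A.5 at 174, F23D12.11 at 155 and ZK813.7 at 121. The remaining members of the highest 10 were F23A7.8, ZK813.1, T04G9.7 and C39D10.7, at 101, 97.3, 92.9 and 88.0 CPM per kilobase. C07D8.6 was among the steadiest, between 170 ± 8.62 CPM in wt and 220 ± 5.87 CPM in gld2.

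The first comparison was gld2 with wt. Of the 796 members 201 were higher (25.3%) and 98 lower (12.3%) in gld2 at an adjusted p under 0.05 in edgeR's quasi-likelihood test, with Benjamini-Hochberg adjustment over the 16888 genes tested. Over all tested genes 28.8% were higher and 20.2% lower, so the members were called no more often than genes in general. The median log2 fold change was 0.21 for the members, 0.32 for the autosomal sequence-named genes, 0.11 for the X-linked genes with other symbols and 0.14 for all genes. Without gld2 replicate 1 it was 0.12 for the members and 0.11 for all genes. Autosomal sequence-named genes were called higher in 36.9% of cases and lower in 16.3%.

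The members and the autosomal sequence-named genes differed most in large increases. A rise of at least 2-fold was called for 106 members (13.3%), against 1186 autosomal sequence-named genes (28.1%) and 19.4% of all genes. A fall of at least 2-fold was called for 54 members (6.78%), against 3.12% of the autosomal sequence-named genes and 4.21% of all genes. The X-linked genes with other symbols were close to the members, with 10.1% called for such a rise and 5.59% for such a fall. Among genes with a mean of 1 to 10 CPM, 18.2% of the members and 41.3% of the autosomal sequence-named genes rose by at least 2-fold. Above 10 CPM the shares were 5.68% and 8.06%, and the shares falling by at least 2-fold were 10.04% and 4.20%. With changes of any size, 34.9% of the members above 10 CPM were called higher and 22.3% lower. The autosomal sequence-named genes above 10 CPM had 24.6% and 37.1%, so at this level the members were called higher more often. The mean log2(CPM + 0.5) of the members minus that of the autosomal sequence-named genes lay between -0.22 and -0.19 in the wt libraries and between -0.67 and -0.47 in gld2. No p is given for these differences between sets, whose members were chosen with results known. Both sets were also admitted by a summed count that includes the mutant libraries. Genes almost unread in wt could therefore enter only through mutant libraries where they are higher. Such genes made up more of the autosomal set than of the members. How far this choice shaped the differences between the sets against wt was not tested.

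Few members were read in the mutant libraries almost alone. At most 3 counts over the 3 wt libraries were found for 8 of 796 members (1.01%), against 334 of 4227 autosomal sequence-named genes (7.90%, from 3.47% on chromosome III to 11.8% on chromosome IV). Among the X-linked genes with other symbols there were 4 of 1073 (0.373%). A gene this low in wt can reach the summed count of 150 only through mutant libraries where it is higher, so these counts describe the chosen genes and do not support a rise. The 8 members were K08H2.5, ZC373.3, C49F5.5, T22B2.5, F49H12.4, F22H10.1, C05E7.3 and D1005.5. K08H2.5 had 0 counts in wt and 92 in gld2, 113 in gld2-ccf1, 99 in gld2-ccr4 and 189 in gld2-parn1, summed over 3 libraries. C49F5.5 had 0 counts in wt and 29, 53, 111 and 80 in the mutants, in the same order. ZK899.6 did the opposite, with 260 counts in wt, 2 in gld2, 21 in gld2-ccf1, 51 in gld2-ccr4 and 0 in gld2-parn1.

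Members named for the size of their change were taken from those whose libraries do not overlap between the compared genotypes, so this separation is part of their choice. T22B7.7 (X, 5651865 to 5654074, minus strand) rose the most among the members named by size of change. It was at 5.88, 7.83 and 10.9 CPM in wt and at 199, 270 and 265 CPM in gld2 (log2 fold change 4.89, SE 0.25, adjusted p = 1.52e-08). In the double mutants it was higher again, at 787, 606 and 681 CPM in gld2-ccf1 and 717, 631 and 805 CPM in gld2-ccr4. In gld2-parn1 it was at 691, 476 and 549 CPM. The log2 fold changes against gld2 were 1.50, 1.55 and 1.22 (SE 0.21 each, adjusted p 0.000196, 0.000398 and 0.0044), and the double mutants did not pass the test against each other (adjusted p from 0.328 to 0.88).

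The other members with large increases in gld2 were at lower levels. T01B6.1 was at 1.16, 0.661 and 0.331 CPM in wt and at 7.76, 7.35 and 7.62 CPM in gld2 (log2 fold change 3.42, SE 0.34); it overlaps another coding gene on the opposite strand, and whether counting used the strand is not stated. F54G2.1, a gene at a higher level, was at 4.28, 6.34 and 7.82 CPM in wt and at 23.4, 23.7 and 25.3 CPM in gld2 (log2 fold change 1.97, SE 0.16, adjusted p = 3.38e-09). H40L08.3, E02H4.7, R03E9.2, Y26E6A.2 and C13E3.1 rose by log2 fold changes of 2.25, 2.14, 2.03, 1.97 and 1.90, from wt means between 1.32 and 2.61 CPM.

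The falls included genes at higher wt levels. C55B6.1 (X, 7200364 to 7204044, plus strand) was at 40.1, 44.8 and 46.0 CPM in wt and at 4.14, 3.35 and 4.20 CPM in gld2 (log2 fold change -3.48, SE 0.15, adjusted p = 6.59e-13). R03G8.6 (X, 13094552 to 13100510, minus strand) was at 34.8, 39.5 and 39.6 CPM in wt and at 3.02, 3.53 and 4.28 CPM in gld2 (log2 fold change -3.40, SE 0.25, adjusted p = 1.23e-09). For both genes every wt library lay above every mutant library. They differed in the double mutants: C55B6.1 was at 16.3 ± 2.59 CPM in gld2-ccf1, 13.1 ± 0.570 in gld2-ccr4 and 5.97 ± 0.460 in gld2-parn1, whereas R03G8.6 was at 4.05 ± 0.259, 6.19 ± 1.67 and 5.36 ± 2.03 CPM. C55B6.1 was called higher than in gld2 in all 3 double mutants (log2 fold changes 2.06, 1.74 and 0.62, adjusted p 2.58e-09, 9.41e-08 and 0.0105), and R03G8.6 in gld2-ccr4 (0.78, adjusted p = 0.0273) but not in gld2-ccf1 (0.16, adjusted p = 0.645) or gld2-parn1 (0.58, adjusted p = 0.141).

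F47E1.4 fell from 12.7, 9.26 and 7.27 CPM in wt to 1.48, 0.717 and 0.473 CPM in gld2 (log2 fold change -3.43, SE 0.37). F02E8.4 had one of the 3 smallest adjusted p-values among the members: it was at 146, 144 and 142.2 CPM in wt and at 49.1, 41.5 and 39.4 CPM in gld2 (log2 fold change -1.73, SE 0.10, adjusted p = 4.52e-11). H29C22.1, Y75D11A.3, C41G11.1, T22B2.1 and F23A7.4 fell by 3.03, 2.49, 2.11, 2.10 and 2.09 on the log2 scale. F23A7.4 and its neighbour F23A7.8, short genes of 207 and 204 exonic bases on the same strand within 1 kb, both fell in gld2, F23A7.8 by 1.75 (SE 0.17).

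**Figure D2:**
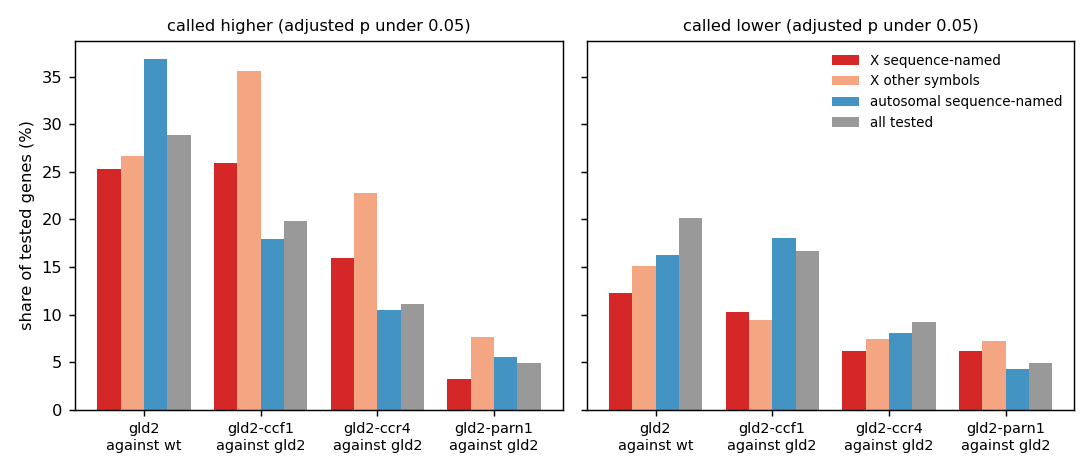
Share of tested genes (percent, vertical axis from 0) called higher (left) and lower (right) at an adjusted p under 0.05 in the 4 main comparisons, for 4 sets of genes. In gld2 against wt the bars for X-linked sequence-named genes (25.3% and 12.3%) are below those for all genes. In gld2-ccf1 and gld2-ccr4 against gld2 they are above all genes for higher calls (25.9% and 15.95%). For lower calls they are below all genes in both (10.3% and 6.16%).

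The second comparison was gld2-ccf1 with gld2, in libraries labelled so. Of the members 206 were higher (25.9%) and 82 lower (10.3%), against 19.8% higher and 16.7% lower over all genes. The autosomal sequence-named genes were nearly balanced, with 757 higher (17.9%) and 764 lower (18.1%). The X-linked genes with other symbols were called higher in 35.6% of cases and lower in 9.41%, so the lean to higher calls was found in both X-linked sets. The median log2 fold change was 0.26 for the members, 0.33 for the other X-linked genes, -0.05 for the autosomal sequence-named genes and 0.00 for all genes.

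This lean is relative to other genes and its sign depends on the scale. When libraries were scaled on 98 genes of the somatic lists instead of all genes, the median of all genes moved to -0.34 and that of the members to -0.09, and 109 members were called higher (13.7%) and 152 lower (19.1%), against 7.81% and 30% of all genes. These muscle, neuron, intestine and epidermis genes were not steady themselves. On the TMM scale 15, 4, 11 and 4 of them were higher and 2, 0, 6 and 5 lower, in that order. The same lists had 9, 4, 8 and 3 genes on X. The members lay 0.25 above the median of all genes on either scale. A change of scale moves all genes of a library alike, so this gap was nearly fixed and is no check of the lean. Each 3 Mb stretch of X had more higher than lower calls on the TMM scale, from 20.4% higher and 9.26% lower in the last stretch to 31.9% and 12.8% between 12 and 15 Mb.

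F53A9.8 (X, 8718641 to 8718904, 264 exonic bases) had the largest increase among the named members. It was at 1.58, 3.23 and 3.03 CPM in gld2 and at 32.3, 27.8 and 28.8 CPM in gld2-ccf1 (log2 fold change 3.51, SE 0.32, adjusted p = 7.85e-07). It was also higher in gld2-ccr4, at 12.1, 22.6 and 19.4 CPM (2.79, SE 0.32, adjusted p = 2.09e-05), and not in gld2-parn1, at 1.89, 1.53 and 1.0 CPM (-0.81, adjusted p = 0.149). In wt it was at 0.776 ± 0.423 CPM, below both raised groups.

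R193.2 (X, 1132993 to 1148585) was at 25.8, 19.3 and 22.4 CPM in gld2 and at 191, 352 and 194 CPM in gld2-ccf1 (log2 fold change 3.45, SE 0.29, adjusted p = 4.60e-06). It was higher there than in gld2-ccr4 and gld2-parn1 as well (log2 fold changes 2.71 and 2.30, adjusted p 5.71e-05 and 7.07e-05). The highest value was in the library with the most ribosomal RNA, and without that library the change against gld2 was 3.09. C12D12.1 and K05B2.2 were also highest in that library, and their changes of 2.32 and 2.14 were 1.61 and 1.78 without it. C03B1.14, B0302.5, C39D10.11 and C55B6.1 rose by 2.45, 2.21, 2.14 and 2.06 and had no such library.

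The smallest adjusted p-values among members that rose belonged to genes at moderate levels with little spread. F46H5.7 was at 46.5, 41.9 and 43.2 CPM in gld2 and at 137, 117 and 113 CPM in gld2-ccf1 (log2 fold change 1.48, SE 0.09, adjusted p = 4.97e-10). F46G10.1 was at 8.95, 11.4 and 10.5 CPM in gld2 and at 41.2, 36.6 and 40.6 CPM in gld2-ccf1 (1.94, SE 0.13, adjusted p = 2.25e-09). Both genes were also higher in gld2-ccr4 than in gld2 (1.10 and 1.37, adjusted p 9.70e-08 and 7.32e-07).

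Some of the most abundant members fell in gld2-ccf1. T04G9.7 was at 47.6, 46.0 and 47.4 CPM in gld2 and at 10.5, 10.2 and 11.4 CPM in gld2-ccf1 (log2 fold change -2.13, SE 0.10, adjusted p = 1.05e-11). C39D10.7 was at 354, 328 and 329 CPM in gld2 and at 93.9, 137 and 98.4 CPM in gld2-ccf1 (-1.62, SE 0.14, adjusted p = 1.55e-06). Neither passed the test in gld2-ccr4 or gld2-parn1 against gld2 (adjusted p from 0.108 to 0.994). C09B8.4 fell from 13.4, 33.2 and 27.97 CPM to 2.87, 3.23 and 2.53 CPM (-3.12, SE 0.37), and was also lower in gld2-ccf1 than in gld2-ccr4 (-2.41, adjusted p = 0.000514). F53H4.2, F54F7.2, Y62H9A.5, ZK813.3 and ZC373.2 fell by 2.67, 2.40, 2.18, 1.92 and 1.89 on the log2 scale.

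Several of the falling members are neighbours on X, in clusters picked after their values were seen. ZK813.1, ZK813.2, ZK813.3 and ZK813.7 lie between 3441839 and 3446935 on the plus strand, and all 4 were lower in gld2-ccf1 than in gld2, by 1.56, 1.33, 1.92 and 1.88 on the log2 scale (adjusted p from 4.26e-05 to 0.0119). They are the called ones of 5 members whose names start with ZK813. ZK813.1 was at 136, 148 and 118 CPM in wt and 49.5, 52.7 and 47.5 CPM in gld2. In gld2-ccf1 it was at 19.5, 19.3 and 12.2 CPM, and the 3 groups did not overlap. In gld2-ccr4 and gld2-parn1 it spread more widely, from 18.2 to 42.1 and from 19.7 to 51.4 CPM. How reads that match close copies were counted is not stated, so the split between neighbours of this kind is uncertain.

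Y62H9A.3, Y62H9A.4 and Y62H9A.5 lie between 11879110 and 11882900, next to ule-5 (11883127 to 11884042), one of the genes named for expression in the uterine lumen. Y62H9A.5 was at 198, 224 and 217 CPM in wt and 110, 118.99 and 115 CPM in gld2. In gld2-ccf1 it was at 28.4, 27.2 and 20.6 CPM, a fall against gld2 (log2 fold change -2.18, SE 0.39, adjusted p = 0.00124), while its difference between gld2 and wt did not pass the test (-0.89, adjusted p = 0.0657). Y62H9A.3 fell in both comparisons (-1.52 and -1.23, adjusted p 0.00594 and 0.0287), and Y62H9A.4 in gld2 against wt (-1.78, adjusted p = 0.00236) but not in gld2-ccf1 against gld2 (-1.06, adjusted p = 0.0522). The neighbour ule-5 was at 324 ± 17.1 CPM in wt, 147 ± 10.4 in gld2 and 31.1 ± 5.34 in gld2-ccf1. F31F6.1, F31F6.2 and F31F6.3, by contrast, fell in gld2 (by 0.99, 1.35 and 1.22) and were higher in gld2-ccf1 than in gld2 (0.87, 1.46 and 1.36). Both comparisons use the same gld2 libraries. F31F6.2 and F31F6.3 overlap on the same strand.

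**Figure D3:**
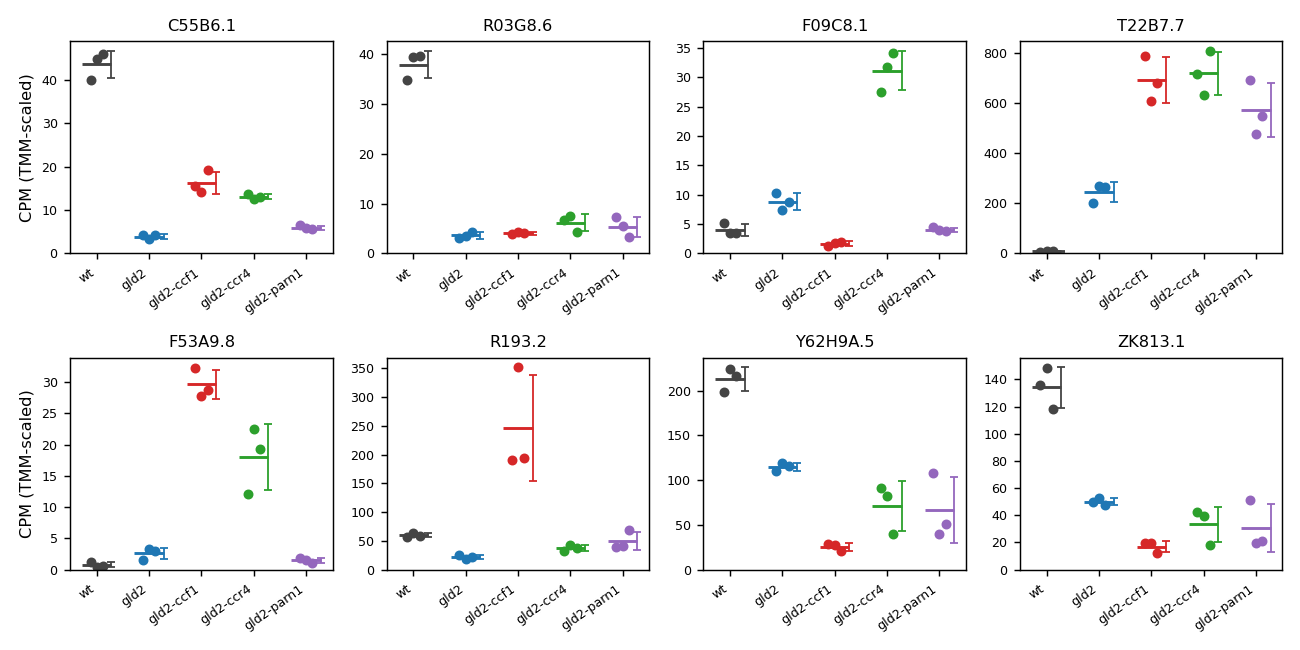
CPM (TMM-scaled, linear axes from 0, each panel with its own scale) of 8 members in the 15 libraries, by genotype; points are libraries in replicate order, lines are means and bars are SDs (n = 3). C55B6.1 and R03G8.6 are highest in wt, T22B7.7 is high in all mutants, F53A9.8 is high in gld2-ccf1 and gld2-ccr4, R193.2 is high in gld2-ccf1, F09C8.1 is high in gld2-ccr4, and Y62H9A.5 and ZK813.1 are highest in wt and lowest in gld2-ccf1 by their means.

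The third comparison was gld2-ccr4 with gld2. Of the members 127 were higher (15.95%) and 49 lower (6.16%), against 11.1% higher and 9.23% lower over all genes and 10.5% and 8.02% for the autosomal sequence-named genes. The median log2 fold change was 0.15 for the members, 0.22 for the X-linked genes with other symbols, 0.03 for the autosomal sequence-named genes and 0.00 for all genes. Leaving out 1 library took the members' median to between 0.11 and 0.23, the highest without gld2 replicate 1, and without the libraries above 4% ribosomal RNA it was 0.10. With scaling on the somatic genes the medians were -0.29 for the members and -0.45 for all genes, and 48 members were called higher (6.03%) and 206 lower (25.9%), against 3.62% and 38.3% of all genes. The members again lay above all genes, by 0.15 and 0.16 on the 2 scales, a gap that a change of scale leaves nearly fixed.

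F09C8.1 (X, 16159648 to 16163524, minus strand) moved in opposite directions in different double mutants. It was at 5.15, 3.45 and 3.42 CPM in wt and at 10.2, 7.43 and 8.79 CPM in gld2. It was at 27.5, 31.7 and 34.1 CPM in gld2-ccr4, 1.23, 1.72 and 2.01 CPM in gld2-ccf1 and 4.44, 3.94 and 3.73 CPM in gld2-parn1. Gld2-ccr4 lay above every other library and gld2-ccf1 below every other library. Against gld2 the log2 fold changes were 1.82 (SE 0.19, adjusted p = 1.90e-06), -2.41 (SE 0.21, adjusted p = 6.21e-08) and -1.12 (SE 0.20, adjusted p = 0.00118), and gld2-ccf1 against gld2-ccr4 gave -4.23 (SE 0.22, adjusted p = 6.19e-11).

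T22B2.1 was at 8.77, 7.17 and 10 CPM in wt and at 3.14, 2.10 and 0.778 CPM in gld2. It was at 6.47, 8.97 and 7.82 CPM in gld2-ccr4 and at 0.656, 0.238 and 0.353 CPM in gld2-parn1. Gld2-ccr4 overlapped wt, whereas gld2-parn1 lay below every gld2 library. The log2 fold changes against gld2 were 1.94 in gld2-ccr4 (SE 0.35, adjusted p = 0.000622) and -2.26 in gld2-parn1 (SE 0.42, adjusted p = 0.00227).

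F09B12.3 had one of the smallest adjusted p-values in this comparison: it was at 43.1, 44.4 and 49.2 CPM in gld2 and at 107, 114 and 135 CPM in gld2-ccr4 (log2 fold change 1.38, SE 0.10, adjusted p = 1.75e-08). It was also higher in gld2-ccf1 and gld2-parn1 than in gld2 (0.90 and 0.52, adjusted p 6.54e-07 and 0.00181). F54E4.3, C05G5.1 and C55B6.1 rose by 1.75, 1.68 and 1.74. C45B2.1 was called higher (2.08, adjusted p = 0.0313), but the call was lost whichever of the 6 libraries was left out (adjusted p from 0.055 to 0.11).

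The 49 members that fell in gld2-ccr4 had a median level of 11.2 CPM over the 15 libraries, and 26 of them were over 10 CPM. Y41G9A.10 was at 5.67, 8.30 and 7.53 CPM in gld2 and at 3.08, 2.10 and 2.25 CPM in gld2-ccr4 (-1.53, SE 0.30, adjusted p = 0.00111), close to its wt level of 1.96 ± 0.587 CPM. F23D12.10, C46C11.4, C13E3.1, C16H3.3 and T24D5.2 fell by 1.51, 1.25, 1.08, 1.08 and 0.91; all 5 had been called higher in gld2 than in wt, a pair of comparisons that share the gld2 libraries. F23A7.8 fell by 1.22 (SE 0.17) and had fallen in gld2 too. The calls of F41B4.3 (-0.84) and C46C11.4 were lost when 1 library was left out, F41B4.3 with any of 5 libraries (adjusted p up to 0.236) and C46C11.4 without gld2-ccr4 replicate 3 (adjusted p = 0.0603).

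The fourth comparison was gld2-parn1 with gld2, in libraries labelled so. Here 26 members were higher (3.27%) and 49 lower (6.16%), against 4.90% higher and 4.90% lower over all genes and 5.56% and 4.33% for the autosomal sequence-named genes. The median log2 fold change was 0.00 for the members and 0.02 for all genes, and with scaling on the somatic genes -0.33 and -0.31, with 5 members higher (0.628%) and 186 lower (23.4%) against 2.06% and 26.4% of all genes. DESeq2 called 51 members higher (6.41%) and 75 lower (9.42%), against 8.69% and 5.81% of all genes. Leaving out 1 library took the higher calls to between 10 and 25 and the lower calls to between 25 and 43, so these counts are the least settled of the 4 comparisons.

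Among members outside the left end of the chromosome, R09F10.8 (X, 8325107 to 8326451) had the smallest adjusted p. It was at 99.9, 109 and 117 CPM in gld2 and at 43.7, 53 and 56.8 CPM in gld2-parn1 (log2 fold change -1.09, SE 0.09, adjusted p = 1.74e-07). Its levels in wt, gld2-ccf1 and gld2-ccr4 were 103.8 ± 5.99, 97.1 ± 7.90 and 101 ± 3.04 CPM, so gld2-parn1 lay below all 12 other libraries; it overlaps a coding gene on the opposite strand. R04D3.2 was at 48.6, 32.9 and 36.4 CPM in gld2 and at 16.5, 17 and 17.6 CPM in gld2-parn1 (-1.21, SE 0.13, adjusted p = 4.38e-06). C29F7.2 and K03A11.1 fell by 1.42 and 1.12; the call of C29F7.2 was lost without the libraries above 4% ribosomal RNA (adjusted p = 0.0608).

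Among the named rises in gld2-parn1, that of T22B7.7, given above, was the largest. C18B2.5 was at 20.7, 21.1 and 19.6 CPM in gld2 and at 32.8, 29.6 and 40.9 CPM in gld2-parn1 (0.75, SE 0.11, adjusted p = 0.000253), and C52B11.5 rose by 1.13 (SE 0.19, adjusted p = 0.00105). Both had fallen in gld2 and were higher in the other double mutants too (C18B2.5 by 1.49 and 1.11 in gld2-ccf1 and gld2-ccr4). R193.2, W01C8.5, C18B2.3, C35C5.10 and K10C2.8 were called higher with changes of 1.15, 0.85, 0.68, 0.66 and 0.73, and each lost its call when 1 library was left out (adjusted p up to 0.0874, 0.109, 0.173, 0.0784 and 0.0798).

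The members at the left end of X were lowest in the libraries labelled gld2-parn1. This stretch was picked after the values were seen. The first 250 kb of X hold 8 members, Y73B3A.1, Y73B3A.20, Y73B3A.4, T08D2.4, T08D2.5, T08D2.6, T08D2.8 and Y73B3B.1, between 42632 and 211241. All 8 had a negative log2 fold change against gld2, with a median of -1.81 and a range from -4.0 to -1.28. Of the 8, 6 were called lower, against 4.90% of all tested genes. Their summed level was 8.74, 13.5 and 32.6 CPM in gld2-parn1 and from 44.1 to 114 CPM in the 12 other libraries. Against gld2 their median was -0.43 in gld2-ccf1, where Y73B3A.20 and T08D2.5 were called lower and Y73B3A.4 higher, and -0.54 in gld2-ccr4, where T08D2.5 was called lower. Tested directly, 7 of the 8 were higher in gld2-ccf1 than in gld2-parn1 and 4 were higher in gld2-ccr4 than in gld2-parn1. The shares of all tested genes called higher in these tests were 20% and 7.34%.

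T08D2.5 (177375 to 179394) changed the most. It was at 4.09, 4.56 and 2.5 CPM in gld2 and at 0.0525, 0.265 and 0.382 CPM in gld2-parn1 (log2 fold change -4.0, SE 0.44, adjusted p = 7.41e-06). T08D2.8 was at 8.45, 10.7 and 9.42 CPM in gld2 and at 1.84, 1.96 and 4.91 CPM in gld2-parn1 (-1.72, SE 0.28, adjusted p = 0.000605). Y73B3A.4 was at 11.5, 10.1 and 11.7 CPM in gld2 and at 2.26, 3.78 and 5.35 CPM in gld2-parn1 (-1.55, SE 0.22, adjusted p = 0.000204). All 3 genes were lower in gld2-parn1 than in every other library, with replicate 3 the highest of the gld2-parn1 libraries in each.

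Y73B3A.20, T08D2.4 and Y73B3B.1 were lower by 1.88, 1.84 and 2.34 on the log2 scale (adjusted p 0.000949, 0.0155 and 0.0109); T08D2.4 overlaps T08D2.5 on the same strand, and the calls of T08D2.4 and Y73B3B.1 were lost without some single libraries (adjusted p up to 0.0699 and 0.0617). T08D2.6 was not called (-1.28, adjusted p = 0.0588). Y73B3A.1 was not called either (-1.78, adjusted p = 0.168); it spread from 1.81 to 17.5 CPM in gld2-parn1 and reached 75.2 CPM in gld2-ccf1 replicate 2, and without the libraries above 4% ribosomal RNA its change was -2.85 (adjusted p = 0.0044). The next 8 members along X, from 326111 to 425635, had a median of -0.22, and M02E1.1 and R04A9.7 were called lower (-0.34 and -1.54, adjusted p 0.0484 and 0.048).

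**Figure D4:**
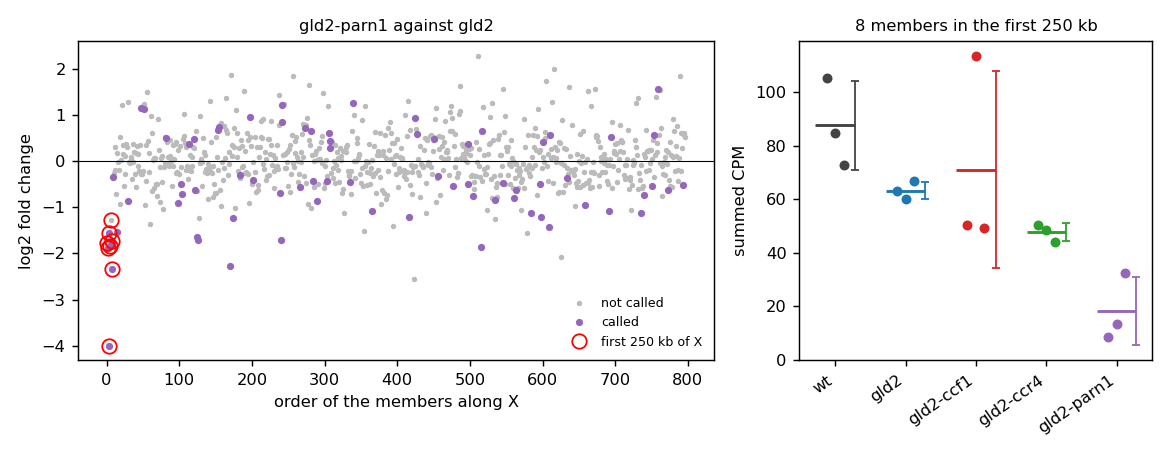
Left, log2 fold change of gld2-parn1 against gld2 for the 796 members in their order along X, with called members in purple and the 8 members of the first 250 kb circled in red; these 8 lie between -4.0 and -1.28, under the bulk of the members. Right, summed CPM of the 8 members in the 15 libraries (points in replicate order, lines for means, bars for SDs, n = 3, axis from 0), with gld2-parn1 at 8.74, 13.5 and 32.6 below all others.

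Against wt the double mutants share the wt libraries, and the values are given side by side. In gld2-ccf1 303 members were higher and 75 lower (all genes 32.1% and 19.7%), with a median of 0.49 against 0.19 for all genes and 0.37 for the autosomal sequence-named genes. In gld2-ccr4 246 were higher and 77 lower (all genes 30% and 20.8%), with medians of 0.35, 0.14 and 0.33. In gld2-parn1 178 were higher and 101 lower (all genes 28.9% and 21.5%), with medians of 0.24, 0.15 and 0.35. The medians of the X-linked genes with other symbols were 0.48 in gld2-ccf1, 0.33 in gld2-ccr4 and 0.18 in gld2-parn1. Without the libraries above 4% ribosomal RNA the gld2-parn1 medians were 0.12 for the members and 0.11 for all genes. With scaling on the somatic genes the median of all genes against wt was -0.07, -0.22 and -0.09 in the 3 double mutants and that of the members 0.22, -0.00 and -0.01.

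Between the double mutants the test was made directly. Against gld2-parn1, 220 members were higher (27.6%) and 59 lower (7.41%) in gld2-ccf1, against 20% and 17.2% over all genes, with a median of 0.25 against -0.00 for all genes and -0.09 for the autosomal sequence-named genes. Against gld2-ccr4, 14.95% were higher and 8.79% lower in gld2-ccf1 (all genes 14.4% and 11.6%), with a median of 0.09. Against gld2-parn1, 90 members were higher (11.3%) and 15 lower (1.88%) in gld2-ccr4 (all genes 7.34% and 5.95%), with a median of 0.17. The X-linked genes with other symbols leaned the same way, with 34.0% higher and 7.46% lower in gld2-ccf1 against gld2-parn1. They had 21.6% and 9.97% in gld2-ccf1 against gld2-ccr4, and 14.2% and 2.80% in gld2-ccr4 against gld2-parn1. Over the 4 main comparisons 319 members were called in none (40.1%, against 33.3% of all tested genes), 238 in 1 (29.9% against 32.97%), 140 in 2 (17.6% against 21.5%), 76 in 3 (9.55% against 9.39%) and 23 in all 4 (2.89% against 2.84%).

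In each of the 4 main comparisons the called members were more abundant than those not called, so the depth behind a member bears on whether it was called. In gld2-ccf1 against gld2 the median level was 8.41 CPM for the higher calls, 7.41 CPM for the lower calls and 1.66 CPM for the others, and in gld2-parn1 against gld2 it was 20.97, 11.5 and 2.58 CPM. Exon length also differed. In gld2-ccf1 against gld2 the members called higher had a median exon length of 1566 bases and 7 exon blocks, those called lower 1189 bases and 5 blocks, and those not called 1217 bases and 6 blocks. In gld2-parn1 against gld2 the 26 called higher had 2008 bases and 10 blocks, the 49 called lower 1629 bases and 7 blocks, and the others 1241 bases and 6 blocks. In gld2-ccr4 against gld2 the medians were 1462, 1651 and 1217 bases. Of the 796 members 610 overlap no other protein-coding gene, 156 overlap one on the opposite strand, 27 on the same strand and 3 on both.

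Genes that act on the X chromosome and markers of the tissues in the sample were followed beside the members. Of 22 genes of X silencing and dosage compensation 7 were higher and 8 lower in gld2 than in wt (median log2 fold change -0.14). The gene sdc-1, which acts in sex determination and dosage compensation, rose in gld2 (53.5 to 89.9 CPM, 0.75, SE 0.08), and mix-1, a subunit of condensin and of the dosage compensation complex, rose by 0.52 (SE 0.06). Against gld2 both fell in gld2-ccr4 (by 0.53 and 0.40), where 9 of the 22 were lower and 1 higher; 7 were lower and 4 higher in gld2-ccf1 and 5 lower and 1 higher in gld2-parn1.

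Of 30 tested sperm genes, none of them on X, 29 were higher in gld2 than in wt, with a summed level from 48.1 to 54.3 CPM in wt and from 427 to 519 CPM in gld2. Their summed level was 288 to 355 CPM in gld2-ccf1, 362 to 438 in gld2-ccr4 and 573 to 707 in gld2-parn1. Of 20 oocyte and maternal genes, also none on X, 17 were lower in gld2 than in wt and 13 were higher in gld2-ccf1 than in gld2, against 2 in gld2-ccr4 and 2 in gld2-parn1. Of 24 muscle genes, 9 of them on X, 8 were lower in gld2 than in wt, and the double mutants with ccf1, ccr4 and parn1 had 15, 19 and 8 of them higher than in gld2. The double mutant with ccf1 also had 2 muscle genes lower.

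Of 26 intestinal genes, 8 of them on X, 8 were higher and 8 lower in gld2; the peptide transporter gene pept-1, on X, fell by 1.93 (SE 0.10) in gld2 and was higher than in gld2 by 1.74 (SE 0.10) in gld2-ccr4. The metallothionein gene mtl-1, on V, rose in gld2 by 3.47 (SE 0.35), from 0.720 ± 0.329 to 7.83 ± 0.796 CPM. Against gld2, 11 intestinal genes were higher and 6 lower in gld2-ccf1 and 12 higher and 3 lower in gld2-ccr4. The neuronal list (28 genes) had 9 higher and 1 lower in gld2, the epidermal list (20 tested) 5 and 4, the somatic gonad list (20) 4 and 3, and the early embryo list (15 tested) 6 and 5. In gld2-ccf1 against gld2 the counts were 4 higher and 0 lower, 4 and 5, 11 and 4, and 5 and 4 in the same order. Against wt, 28.8% of all tested genes were higher and 20.2% lower in gld2. Against gld2 the all-gene shares were 19.8% and 16.7% for gld2-ccf1, 11.1% and 9.23% for gld2-ccr4, then 4.90% each for gld2-parn1. The counts of the lists were not tested against these shares. The part of these tissues in the results for the members was not tested.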

How the data were processed

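Read counts per gene, as deposited by the authors with WormBase identifiers, were used without change. The submitters' processing notes name build WBcel235, Subread 1.4.6-p4, featureCounts, STAR 2.5.2b, DESeq2 1.18.1 and FastQC, with no role for each. Per the labels' protocols, Trizol was used to extract RNA, a depletion kit for human, mouse and rat removed ribosomal RNA, and strand-specific libraries were made. Strand and multiple matches in counting are not given in the sources used here. Symbols and positions came from the supplied WBcel235 annotation, which holds 46484 of the 46739 identifiers. The authors' normalized table was not used.

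Genes passing filterByExpr (16888) were TMM-scaled and fitted over all 15 libraries with 5 genotype means in edgeR 4.0.16 (R 4.3.3; glmQLFit with robust estimation, glmQLFTest, 10 residual degrees of freedom). The two-sided p-values were Benjamini-Hochberg adjusted over all tested genes and called under 0.05. The SE is the absolute log2 fold change over the square root of F. The common biological coefficient of variation was 0.178. The script was tested on simulated data.

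Members, gene lists and comparisons were chosen with earlier results of these data known. Named members are the 8 higher and 8 lower called members with the largest changes in each main comparison (at least 3 CPM on average in the 6 libraries, no overlap between groups) and those with the 3 smallest adjusted p-values. The 10 highest levels per kilobase, all members at 0 counts in a genotype and those beside the count limit are named too. Genes of the lists are named from the 2 with the smallest adjusted p. The alternatives were DESeq2 1.42.0, other scalings and filters, subsets of the libraries, leaving out each library and a replicate block. Sequences are not shown here.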

Additional observations from a re-analysis of the deposited data

How the results depend on the processing

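No named change reversed its sign. The direction of each lean in called members also held under scaling by DESeq2's size factors, other filters, a summed count of at least 300 and the replicate block. Values here are percent of the tested members called higher and lower. Scaling on 98 somatic genes gave, against gld2, 13.7% and 19.1% in gld2-ccf1, 6.03% and 25.9% in gld2-ccr4, then 0.628% and 23.4% in gld2-parn1. Against wt it gave 24.9% and 13.8% in gld2-ccf1, 17.96% and 18.1% in gld2-ccr4, then 14.1% and 17.7% in gld2-parn1. Over all genes the shares against wt on this scale were 24.1% and 27.8%, 20.3% and 34.4%, then 21.3% and 29.1%. Lower calls of members outnumbered higher ones in gld2-parn1, and in gld2-ccr4 they were nearly equal (144 lower and 143 higher). The stricter filter, with fewer members tested, gave 9.36% lower in gld2-ccr4 and 5.09% higher in gld2-parn1 against gld2. In the latter comparison DESeq2 called 6.41% higher and 9.42% lower, the fit of the 6 libraries alone 5.15% higher, and the fit without libraries above 4% ribosomal RNA 1.76% higher. Without ribosomal RNA, mitochondrial genes and ccf-1 the shares of counts were 1.03% in wt, 1.17% in gld2, and 1.15%, 1.36% and 1.46% in the double mutants with parn1, ccr4 and ccf1. Leaving out each replicate gave 19.8% to 24.2% higher and 10.2% to 11.6% lower in gld2 against wt. Against gld2 it gave 19.7% to 25.4% and 7.16% to 9.799% in gld2-ccf1, 11.6% to 13.4% and 3.27% to 6.28% in gld2-ccr4, then 1.26% to 3.14% and 3.14% to 5.40% in gld2-parn1. Against wt it gave 31.9% to 37.8% and 8.04% to 9.05% in gld2-ccf1, 26.1% to 30.8% and 7.54% to 9.17% in gld2-ccr4, then 17.1% to 21.98% and 11.1% to 12.1% in gld2-parn1. The lower calls in gld2-ccr4 against gld2 were 3.52%, 4.02% and 3.27% without gld2 replicates 1 and 2 and gld2-ccr4 replicate 3. In gld2-parn1 against gld2 the higher calls were 1.88%, 1.63%, 1.26% and 1.38% without gld2 replicates 2 and 3 and gld2-parn1 replicates 1 and 3. The lower calls there were 3.14%, 3.89% and 3.64% without gld2 replicates 1 and 2 and gld2-parn1 replicate 1. Same-numbered libraries deviated together with correlations from -0.10 to 0.09, so the numbers do not pair the libraries. The replicate block gave 24.9% higher and 12.4% lower in gld2 against wt, and against gld2 25.4% and 10.2% in gld2-ccf1, 15.7% and 5.90% in gld2-ccr4, then 3.02% and 6.28% in gld2-parn1. The causes of these shifts were not tested.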

Other observations

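The first 250 kb of X also hold genes that are not among the sequence-named members, and they were low in the libraries labelled gld2-parn1 as well. Of 17 annotated pseudogenes tested there, all had a negative log2 fold change against gld2, with a median of -2.07 and a range from -5.44 to -0.46, and 12 were called lower. Their summed level was 15.9, 18.6 and 32.0 CPM in gld2-parn1 replicates 1 to 3 and from 63.3 to 107 CPM in the other 12 libraries. The other 4 coding genes, tmed-12, chkr-1, set-28 and Y73B3A.11, had a median of -2.07, and 3 of them were called lower. Over all 32 tested genes of the stretch the median was -1.88, 32 changes were negative and 22 were called lower. Of all tested genes in the series 4.90% were called lower in this comparison. Of 403 windows of 250 kb with at least 8 tested genes, the next lowest median in this comparison was -0.40. This window also had the lowest median of the 403 in gld2-ccr4 against gld2 (-0.40, next -0.35) and against wt in gld2-ccf1 (-0.60, next -0.48), gld2-ccr4 (-0.58, next -0.44) and gld2-parn1 (-2.11, next -0.43). The stretch was picked after the values were seen, no test was made of it, and how reads matching several places were counted is not stated.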
